A study of Mus musculus with 6 samples.

Results

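The proteasome genes of mouse liver were followed over 6 microarrays, taking every gene whose symbol in the platform annotation begins with Psma, Psmb, Psmc, Psmd, Psme or Psmf and a digit, pseudogenes left out. The rule gave 47 symbols of the 18194 genes on the array, and 45 of them had a probe set listed with 1 symbol. The other 2, Psme2 and Psme2b, share a probe set and are given apart. Of the 45, 37 are subunits or regulators found in most tissues, here called constitutive, and 4 are the immune members Psmb8, Psmb9, Psmb10 and Psme1. A further 2 are subunits of other tissues, Psma8 of testis and Psmb11 of thymus, and 2 carry the prefix without being subunits, Psmc3ip and Psme3ip1. The 37 comprised 7 alpha and 7 beta subunits of the core particle, 6 ATPases and 14 non-ATPase genes of the regulatory particle, and 3 activators or inhibitors. This division into classes was made after the values were seen.

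RNA from livers of male mice of the inbred strain C57BL6/J, with no transgene or mutation named, was hybridised to Affymetrix Mouse Genome 430 2.0 arrays. There were 6 groups with 1 array each, and each array carried RNA pooled from 3 to 4 livers, so the spread between animals was not measured. Mice were 6 to 8 weeks old at the start. In the 2-month study the groups were chow, a fast-food diet, and the same diet containing canertinib, a drug that irreversibly blocks EGFR and related receptor kinases, at an estimated 80 mg/kg daily. In the 5-month study the groups were chow, the fast-food diet with vehicle (PBS) injections, and the diet with canertinib injected intraperitoneally at 80 mg/kg. Injections were given on 5 days per week during the last 5 weeks, and none is named for chow. By weight, fat made up 21% and sucrose 34% of the fast-food diet, cholesterol was 0.2%, and the drinking water contained glucose and fructose. Route, length of drug treatment and length of study thus differ together between the times.

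Values are MAS5 signals on a linear scale, and a signal below 221.4, the 50th percentile of all values, was set to that floor before log2 was taken. Of the 18194 genes, 13989 exceeded this floor on 1 or more of the arrays and 9874 on all 6. The 6 arrays had between 84.3% and 86.6% of the 13989 measured genes above the floor. The hepatocyte gene Alb, which encodes albumin, had signals from 55463.7 to 92449.7. All 37 constitutive and all 4 immune members were above the floor on every array, whereas Psma8 was above it on 1 array and Psmb11 and Psmc3ip on 2. A difference between single arrays of a study has no replicate check and no test here, and fewer cells of a type cannot be told apart from less RNA per cell in whole liver.

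The proteasome degrades proteins marked with ubiquitin. Its barrel-shaped core is built of alpha rings, which gate entry, around beta rings, which hold the cutting sites, and the regulatory particle caps the core, binds and removes ubiquitin, and unfolds substrates with its ATPases. The core's cutting subunits Psmb5, Psmb6 and Psmb7 can be replaced by Psmb8, Psmb9 and Psmb10, which interferon gamma induces and which alter the peptides delivered to MHC class I molecules. Psme1 and Psme2 form an alternative cap that is also induced by interferon gamma.

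In the mouse genome Psmb9 and Psmb8 lie on chromosome 17 within the MHC, in the gene order H2-DMb1, Psmb9, Tap1, Psmb8, Tap2, H2-Ob. Psmb9 and Tap1, a subunit of the peptide transporter, start 225 bases apart and are read in opposite directions. The sequence between their starts is shown because both genes had lower signals with canertinib in both studies, and the 250 bases before Psmb8 because that neighbour did not share this. The 250 bases before Psmb5 and Psmb6, the standard counterparts of Psmb8 and Psmb9, are shown for comparison. All come from the RefSeq promoter table on GRCm38.p6. Capitals mark a CCAAT box or the antioxidant response element core TGACNNNGC, a motif bound by NRF factors.
Psmb9-Tap1: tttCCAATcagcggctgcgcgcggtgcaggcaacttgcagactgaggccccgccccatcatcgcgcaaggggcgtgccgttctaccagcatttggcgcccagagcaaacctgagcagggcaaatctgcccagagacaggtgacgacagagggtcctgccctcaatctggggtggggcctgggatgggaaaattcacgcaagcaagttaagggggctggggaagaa
Psmb8: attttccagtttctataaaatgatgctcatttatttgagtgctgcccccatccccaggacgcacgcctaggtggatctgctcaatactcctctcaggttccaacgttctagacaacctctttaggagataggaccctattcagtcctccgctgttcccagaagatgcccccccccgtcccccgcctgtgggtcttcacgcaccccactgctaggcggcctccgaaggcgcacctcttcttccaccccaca
Psmb5: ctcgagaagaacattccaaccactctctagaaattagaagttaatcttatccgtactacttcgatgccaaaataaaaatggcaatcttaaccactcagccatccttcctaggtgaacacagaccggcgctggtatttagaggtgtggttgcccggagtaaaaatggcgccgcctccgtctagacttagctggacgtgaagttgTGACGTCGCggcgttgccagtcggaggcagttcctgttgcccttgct
Psmb6: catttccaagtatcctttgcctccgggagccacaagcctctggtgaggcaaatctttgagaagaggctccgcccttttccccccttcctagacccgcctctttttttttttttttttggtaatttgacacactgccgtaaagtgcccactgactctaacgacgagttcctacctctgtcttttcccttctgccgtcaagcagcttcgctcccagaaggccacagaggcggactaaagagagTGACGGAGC
The Psmb9-Tap1 stretch is chr17:34187331-34187555 on the plus strand, Tap1's strand, and its CCAAT box lies 8 to 4 bases before the start of Psmb9. The Psmb8 window, chr17:34197945-34198194 on the plus strand, held none of the motifs searched. The Psmb5 window is chr14:54617996-54618245 on the minus strand, with the core TGACGTCGC 47 to 39 bases before the start. The Psmb6 window is chr11:70525107-70525356 on the plus strand, with TGACGGAGC in the last 9 bases before the start.

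The constitutive genes varied little over the 6 arrays. The distance from the lowest to the highest array had a median of 0.51 on the log2 scale over the 37 genes, from 0.26 for Psma4 to 1.06 for Psmd3. It was under 1.5-fold for 25 of 37, or 67.6%, beside 32.9% of the 9874 genes above the floor on all arrays and 41.7% of the 1500 of these with a mean signal from 1603 to 3476, the middle 50% of the members' means, a comparison added after the data were seen. The members' own means ran from 309.6 to 9096.1, so the dimmest and brightest are not matched by these 1500 genes. The median range was 0.72 for the 9874 genes and 0.66 for the 1500. Core alpha subunits had a median range of 0.47, beta subunits 0.51, ATPases 0.45 and non-ATPase genes 0.57.

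Within that narrow range both canertinib arrays were the lowest. Each gene's log2 signal was set against its mean over the 6 arrays, and the median of these deviations over the 37 genes was -0.15 with canertinib at 2 months and -0.10 at 5 months. It was 0.00 and 0.11 on the chow arrays and 0.08 and 0.03 on the fast-food arrays of the 2-month and 5-month studies. For the 9874 genes the same medians lay between -0.02 and 0.03. The beta subunits had -0.24 and -0.14 with canertinib, and the non-ATPase genes -0.10 and -0.17. The ATPases had -0.23 at 2 months but 0.02 at 5 months. The actin control probe sets at the 3′ end exceeded those at the 5′ end, a measure of RNA quality, by a log2 difference that was also highest on the canertinib arrays, at 1.19 and 1.12 against 0.85 to 0.98 on the others. For the Gapdh controls this difference was -0.20 and -0.14 against -0.30 to -0.09. Their part in the member values was not tested.

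**Figure D1:**
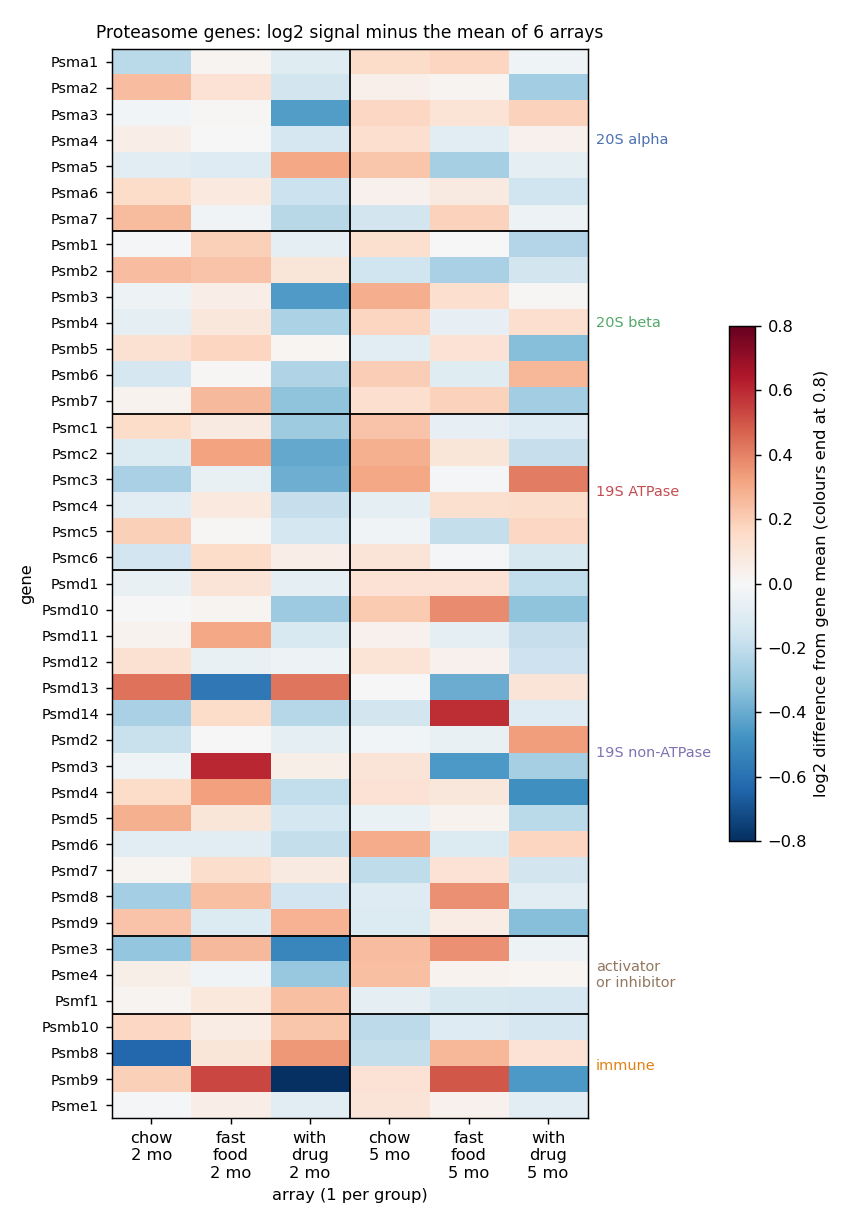
Each row is a proteasome gene and each column an array, and colour gives the log2 signal minus the gene's mean over the 6 arrays (red higher, blue lower), with 20S naming the core and 19S the regulatory particle. The column with canertinib at 2 months is mostly blue among the 37 constitutive genes, with a median of -0.15, and Psmb9 is blue on both canertinib arrays.

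Fast-food feeding was not accompanied by a common direction among the constitutive genes. Against chow, their median log2 difference was 0.09 at 2 months, from -1.0 for Psmd13 to 0.64 for Psmd3, and -0.06 at 5 months, from -0.56 for Psmd3 to 0.74 for Psmd14. Lower were 14 of 37 at 2 months and 24 of 37 at 5 months, beside 49.1% and 54.6% of the 9874 genes, whose medians were 0.01 and -0.04. Lower at both times were 10 of 37, beside 30.8%. At least 1.5-fold higher was 1 gene at each time, Psmd3 and then Psmd14, and at least 1.5-fold lower were 1 and 0 genes, Psmd13 being the one. Of all measured genes 7.51% and 8.45% were at least 1.5-fold higher, and 7.01% and 7.57% at least 1.5-fold lower, so the members' counts were below the background. At least 1.5-fold lower at both times were 0 of 37, beside 1.34% of measured genes.

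With canertinib most constitutive genes had a lower signal than on the diet alone, by small amounts. The median log2 difference was -0.25 at 2 months and -0.13 at 5 months, where the 9874 genes had -0.02 and 0.00 and the 1500 genes of middle signal -0.08 and 0.02. Lower were 32 of 37 genes at 2 months, beside 51.8% of the 9874, and 24 of 37 at 5 months, beside 49.5%. Among the genes of middle signal these shares were 57.3% and 47.3%. The middle 50% of the 37 differences ran from -0.37 to -0.12 at 2 months and from -0.30 to 0.12 at 5 months. Lower at both times were 21 of 37 genes, beside 31.4% of the 9874, and 2 were higher at both. At least 1.5-fold lower were Psmc2 and Psme3 at 2 months and Psmd10 and Psmd14 at 5 months, 2 of 37 each time, beside 10.6% and 9.25% of measured genes. Psmd13 at 2 months was the single gene at least 1.5-fold higher, 1 and then 0 of 37 beside 10.9% and 8.22%. On the chosen probe sets no constitutive gene was at least 1.5-fold lower at both times, beside 3.05%. Another probe set of Psmc6, a gene outside the naming rule, was above the floor on all arrays and had -0.67 and -1.05. The chosen Psmc6 probe set had -0.10 and -0.11. Between the chow arrays of the 2 studies, both from mice without fast food or drug, the median difference of the 37 genes was 0.11. This was about as much in size as their 5-month median difference with canertinib.

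**Figure D2:**
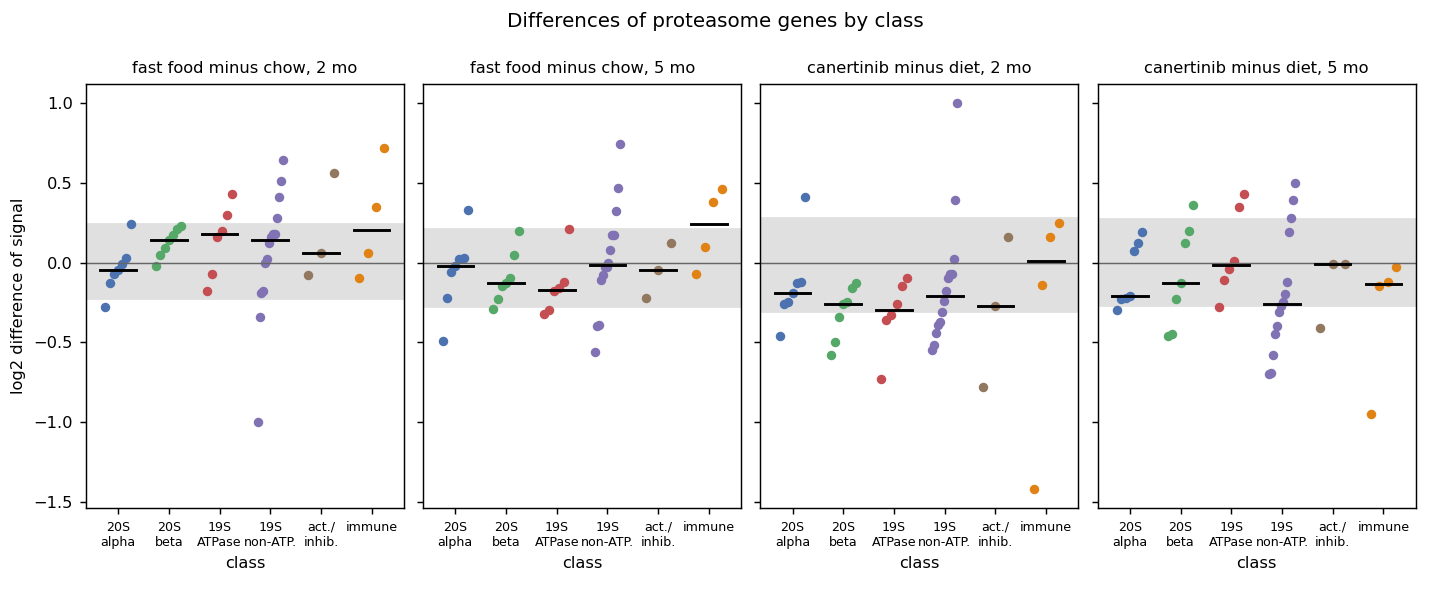
Points are genes, bars are class medians and the vertical axis is the log2 difference of signal between single arrays; grey marks the middle 50% of the 9874 genes above the floor on all arrays. With canertinib at 2 months all 7 beta subunits and all 6 ATPases lie below 0, and Psmb9 lies lowest of the immune genes at both times.

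The alpha subunits, which form the outer rings, had medians of -0.19 and -0.21 with canertinib, and 6 and then 4 of 7 were lower. Psma2 and Psma6 were the lowest by the mean of both studies. Psma2 had signals of 6472.0, 5924.9 and 4936.5 on the chow, fast-food and canertinib arrays at 2 months and of 5614.0, 5542.3 and 4496.8 at 5 months. Psma6 had 3205.9, 3047.7 and 2562.9, then 2965.5, 3036.5 and 2586.8. On these probe sets the canertinib arrays were the lowest of all 6, below chow as well as below the diet. Psma2 has 1 probe set, but 2 further probe sets of Psma6 above the floor on all arrays went the other way, with canertinib differences of 0.29 and 0.21 and of 1.17 and 0.53, against -0.25 and -0.23 on the chosen one. Psma4 had 5486.9, 5288.2 and 4836.4, then 5809.3, 4997.3 and 5436.2, the narrowest range of the 37. Psma5 had 3669.8, 3646.1 and 4853.4, then 4571.0, 3252.9 and 3710.0. On this probe set Psma5 was the 1 alpha subunit higher than the diet at both times, by 0.41 and 0.19, and its canertinib array lay above chow at 2 months and below it at 5 months. Its other probe set above the floor on all arrays had -0.33 and -0.27 against the diet, and the mean over probe sets gave 0.03 and -0.03.

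Of the beta subunits all 7 were lower with canertinib at 2 months, with a median of -0.26, and 4 of 7 at 5 months, with -0.13. Psmb7, which carries the trypsin-like site, had the largest difference of the class. Its signals were 8693.1, 10172.5 and 6801.6 at 2 months and 9336.1, 9658.9 and 7030.5 at 5 months, so that the canertinib arrays lay below all 4 others, with log2 differences from the diet of -0.58 and -0.46. Psmb5, which carries the chymotrypsin-like site, had 4621.8, 4785.9 and 4293.0, then 4014.2, 4597.2 and 3359.3. Its 5-month canertinib array was the lowest, at -0.45 from the diet, while at 2 months it was -0.16. Psmb3, a structural beta subunit, had 2089.6, 2230.5 and 1572.8, then 2627.9, 2362.9 and 2164.2. It differed from the diet by -0.50 and -0.13. Psmb6, which carries the caspase-like site, had 2783.6, 3073.1 and 2588.8, then 3498.3, 2856.9 and 3677.4. Its order was not the same in both studies, with the canertinib array lowest at 2 months (-0.25) and highest at 5 months (0.36). Psmb2, another structural beta subunit, had 4119.2, 4063.0 and 3710.2, then 3111.9, 2902.6 and 3145.3, and its larger gap was between the studies.

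The ATPases, whose ring unfolds substrates and threads them into the core, were all lower with canertinib at 2 months and split 3 to 3 at 5 months, with medians of -0.30 and -0.01. Psmc2 had signals of 3106.9, 4189.9 and 2519.9, then 4078.6, 3588.8 and 2956.0, and Psmc1 had 1454.5, 1384.1 and 1079.3, then 1541.7, 1256.5 and 1223.6. In both the canertinib array was the lowest of its study, Psmc2 differing from the diet by -0.73 and -0.28 and Psmc1 by -0.36 and -0.04. Psmc3 had 2251.6, 2582.2 and 2049.3, then 3335.2, 2665.4 and 3579.5, and Psmc5 had 2322.3, 2046.3 and 1841.1, then 1991.7, 1779.2 and 2275.5. Here the canertinib array was the lowest at 2 months and the highest at 5 months.

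The non-ATPase genes held both the lowest and the highest constitutive differences at 5 months. They include ubiquitin receptors, the deubiquitinase and scaffold subunits, and also Psmd5, Psmd9 and Psmd10, assembly chaperones of the ATPase ring. Their medians with canertinib were -0.21 and -0.26, with 11 and then 10 of 14 lower. Without the chaperones the medians of the other 11 were -0.18 and -0.20. Psmd4, a ubiquitin receptor, had signals of 2761.8, 3120.5 and 2176.1, then 2701.6, 2650.7 and 1775.7. The canertinib arrays were its lowest 2, and differed from the diet by -0.52 and -0.58. A second Psmd4 probe set above the floor on all arrays had -1.02 and -0.55. Psmd14, the deubiquitinase that removes ubiquitin chains, had 1397.3, 1853.1 and 1431.7, then 1512.3, 2522.7 and 1559.0. It was highest on the diet arrays, by 0.41 and 0.74 over chow, and with canertinib it was 0.04 from chow at both times.

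Psmd8, a regulatory-particle subunit outside the naming rule and singled out after its values were seen, had the same order. Its signals were 3405.0, 4853.3 and 3695.5, then 3812.8, 5294.9 and 3875.3, with diet differences of 0.51 and 0.47 and canertinib differences of -0.39 and -0.45. For Psmd8 and Psmd14 both diet arrays lay above all 4 other arrays, but the share of all genes with this order was not counted. The diet array enters both the diet and the drug difference, so a high or low value on it alone moves them in opposite directions. Psmd10, also named after its values were seen, is known as gankyrin and had 305.7, 310.0 and 249.5, then 352.0, 396.1 and 244.3, close to the floor throughout.

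Psmd13 showed the opposite order, and its value depended on the probe set. The chosen probe set had 1783.0, 890.1 and 1777.6, then 1321.5, 1005.2 and 1420.9, lowest on the diet arrays, with canertinib differences of 1.0 and 0.50. For its other 3 probe sets they were 0.29, 0.37 and -0.15 in the 2-month study and -0.09, 0.09 and 0.18 in the 5-month study. Psmd2, a scaffold subunit that docks ubiquitin carriers, had 2527.2, 2864.6 and 2721.1, then 2817.5, 2751.9 and 3615.2. Only its 5-month canertinib array stood above the others. Psmd3 had 1566.1, 2436.6 and 1658.6, then 1724.9, 1166.9 and 1330.8, the diet array being the highest of the 2-month study and the lowest of the 5-month study.

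Among the activators and the inhibitor, Psme3, which encodes a nuclear cap, differed by -0.78 and -0.41 with canertinib. Its signals were 375.1, 554.5 and 323.5, then 549.5, 597.6 and 450.6, so the 5-month canertinib array was not below the 2-month chow array. Another Psme3 probe set, above the floor on 5 arrays, had canertinib differences of -0.67 and -0.01. Psme4, which encodes a large activator that acts without ATP, had 2807.0, 2656.1 and 2198.8, then 3207.4, 2763.1 and 2737.0. Psmf1, which encodes the proteasome inhibitor PI31, had 1259.9, 1315.7 and 1471.4, then 1178.7, 1136.6 and 1130.3. Neither Psme4 nor Psmf1 was 1.5-fold different in a comparison within a study.

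The immune members did not move as a unit. Psmb9 had signals of 952.0, 1209.4 and 453.1 at 2 months and of 901.8, 1174.1 and 606.7 at 5 months. Both canertinib arrays were the lowest, both diet arrays the highest, and the ranges of the 3 treatments did not overlap. How many of all genes have such an order was not counted. The diet differed from chow by 0.35 and 0.38, canertinib from the diet by -1.42 and -0.95, or 2.67-fold and 1.94-fold lower, and canertinib from chow by -1.07 and -0.57. On the chosen probe sets Psmb9 was the 1 member of the 45 that was at least 1.5-fold lower with canertinib in both studies. The share of measured genes was 3.05%, so the count of members was not above the background.

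Psmb8 had 578.1, 954.6 and 1135.6, then 782.1, 1075.6 and 969.4. Its chow arrays were the lowest 2 of the 6, and the diet differed from chow by 0.72 and 0.46. Canertinib differed from the diet by 0.25 and -0.15, so Psmb8 did not share the low canertinib signals of Psmb9. Psmb10 had 1282.0, 1194.3 and 1334.7, then 991.8, 1063.8 and 1045.0, and its 3 treatments lay closer to each other than the 2 studies did. Psme1 had 3320.2, 3459.4 and 3138.0, then 3576.5, 3411.4 and 3137.5, and its canertinib arrays were lowest by a small margin, with a range over all arrays of 0.19. The probe set listed for both Psme2b and Psme2 had 1457.4, 1339.7 and 1723.4, then 1192.1, 1504.4 and 1610.1, and its canertinib arrays were the highest of the 6. With canertinib the 4 immune members had medians of 0.01 and -0.14 against the diet, and with the diet 0.20 and 0.24 against chow.

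Set against the standard subunits they replace, the 3 immune cutting subunits differed in pattern. Each pair is given as the log2 difference with canertinib of the immune gene minus that of its counterpart. Psmb9 minus Psmb6 gave -1.17 and -1.32, Psmb8 minus Psmb5 gave 0.41 and 0.30, and Psmb10 minus Psmb7 gave 0.74 and 0.43. The sign of each pair was the same in both studies. For Psmb10 it came mainly from the lower Psmb7, and for Psmb9 mainly from Psmb9 itself. These are differences of signal within a probe set, and signals of different probe sets were not ranked against each other.

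**Figure D3:**
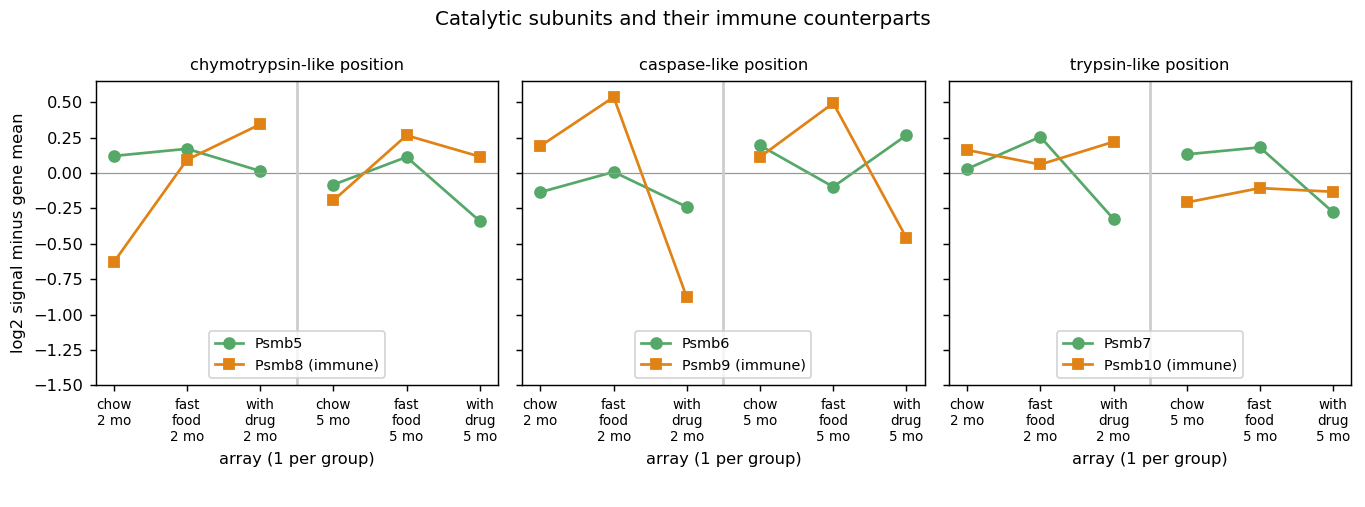
The vertical axis is the log2 signal minus the gene's mean over the 6 arrays, with 1 panel for each cutting site, green circles for the standard subunit and orange squares for the immune one. Psmb9 drops below Psmb6 on both canertinib arrays, whereas Psmb8 and Psmb10 lie above Psmb5 and Psmb7 there.

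Taking the studies as repeats, a limma fit over all 6 arrays, with treatment and study as terms and 2 residual degrees of freedom, called none of the 45 members at an adjusted p under 0.05. All measured genes were called at 0.0286% for diet against chow, 0.715% for canertinib against the diet and 0.765% for canertinib against chow. At an unadjusted p under 0.05 the members numbered 4, 9 and 6 of 45 in these comparisons, beside 9.87%, 14.8% and 15.6% of all measured genes. The study term takes up a shift common to all groups of a study. A treatment difference that is not the same in both studies counts as error, and the drug's route and duration did differ.

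Psmb9 had the smallest adjusted p of the members in the canertinib comparison. Its difference from the diet was -1.18 with a standard error of 0.22 and a limma adjusted p of 0.0971, lower in both studies. With only genes above the floor on all arrays tested, its limma adjusted p was 0.0185, over the other settings it lay between 0.095 and 0.127, and without single arrays between 0.394 and 0.544. Psmd4 had -0.55 with a standard error of 0.13 and Psmb7 -0.52 with 0.14, and neither passed. For diet against chow the smallest limma adjusted p among members was 0.306, that of Psmd8, which had 0.49 with a standard error of 0.12. Psmd14 had 0.57 with a standard error of 0.15 there, and its limma adjusted p was 0.344.

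**Figure D4:**
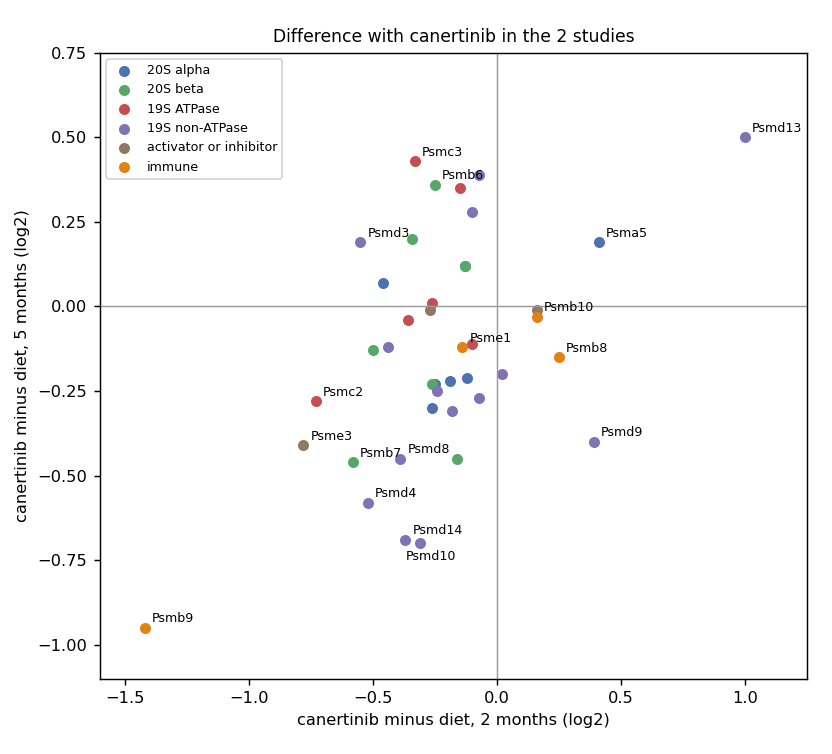
Each point is a constitutive or immune gene, placed by its log2 difference between canertinib and the diet at 2 months (horizontal) and at 5 months (vertical), from 1 array per group. The area below 0 on both axes holds 21 of the 37 constitutive genes, the immune gene Psmb9 lies farthest out there, and Psmd13 lies at the upper right.

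Against chow, the constitutive genes with canertinib had medians of -0.15 and -0.20, and 27 and 25 of 37 were lower, beside 52.2% and 52.6% of the 9874 genes. Lower at both times were 19 of 37, beside 34.8%. At least 1.5-fold higher were 0 of 37 at both times, beside 10.6% and 8.92% of measured genes. At least 1.5-fold lower were 0 and then 1, Psmd4 at -0.61, beside 10.1% and 10.0%. Of the immune members, the 1.5-fold threshold was passed at 2 months by Psmb8, higher by 0.97, and by Psmb9, which had -1.07, and at 5 months by none. When the chow arrays were compared, 13 of 37 constitutive genes were lower at 5 months, beside 48.9%, and 0 were 1.5-fold different in either direction, beside 5.53% higher and 6.7% lower.

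Other genes of the stretch around Psmb9 were read beside it. H2-DMb1, next to Psmb9 on the other side, is listed only on 2 probe sets shared with H2-DMb2. These and the probe set listed for H2-Ob alone were below the floor on all 6 arrays. A probe set shared by H2-Ob and Gm20506 was above it on the 2-month diet array only, at 235.3. Tap1 had signals of 890.7, 1170.7 and 666.7, then 872.5, 988.8 and 809.4, and Tap2, the other transporter subunit, had 445.3, 510.9 and 344.1, then 398.9, 523.4 and 381.3. In each study both were highest on the diet array and lowest on the canertinib array, as was Psmb9, with canertinib differences of -0.81 and -0.29 for Tap1 and -0.57 and -0.46 for Tap2. Psmb8, which lies between them, was not lowest there. Neither Tap1 nor Tap2 passed in the limma fit, where the adjusted p for canertinib against the diet was 0.31 and 0.389.

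**Figure D5:**
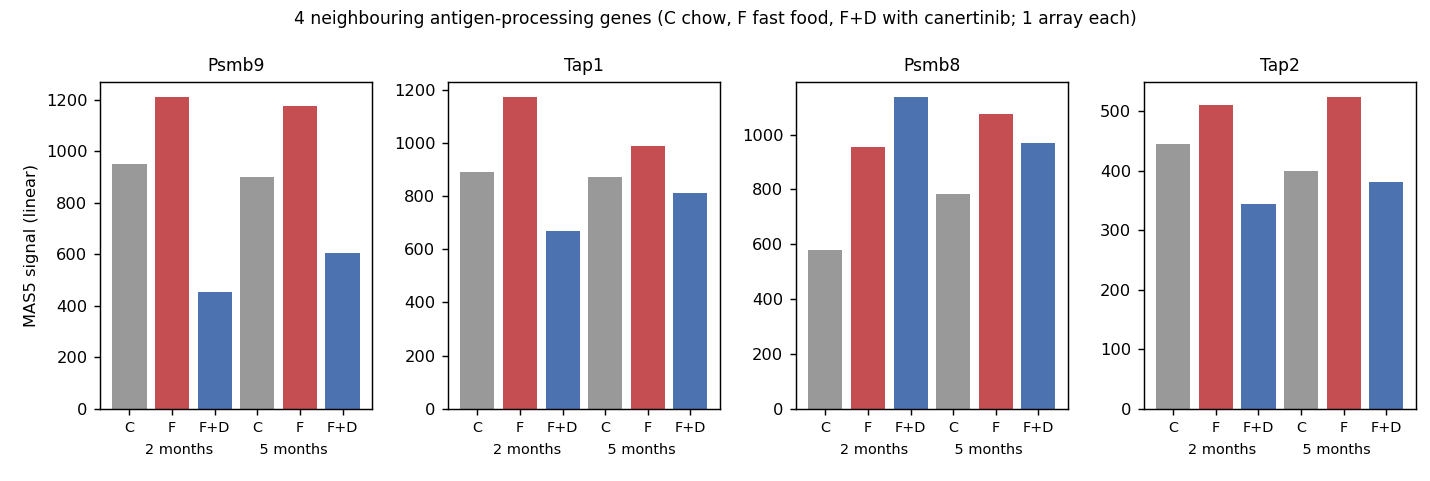
Bars are MAS5 signals on the 6 arrays for 4 genes in their chromosomal order, with chow in grey (C), fast food in red (F) and fast food with canertinib in blue (F+D). In each study Psmb9, Tap1 and Tap2 are lowest with canertinib, and Psmb8 is lowest on chow.

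Most of the other MHC class I genes did not share the low canertinib signals. The 11 measured genes of this list, Tap1 and Tap2 included, had medians of 0.13 and 0.02 with the diet and of 0.07 and 0.02 with canertinib, with 4 and 5 lower. Without Tap1 and Tap2, 2 of 9 were lower with canertinib at 2 months and 3 of 9 at 5 months, with medians of 0.07 and 0.02. Lower at both times were B2m, with -0.26 and -0.27, and Canx, with -0.22 and -0.02. Tapbp, which links the transporter to class I molecules, had canertinib differences of 0.65 and 0.33, and the chaperone gene Calr 0.34 and 0.76. B2m, Canx and Tapbp are outside the naming rule. Genes of the interferon gamma response, 10 of which were measured, had medians of 0.25 and 0.44 with the diet and of -0.23 and -0.46 with canertinib, with 7 and 8 lower. Over all measured genes the median was 0.00 in each of these comparisons, and 46.6% and 46.5% were lower with canertinib. Cxcl9, a chemokine induced by interferon gamma, had 220.3, 771.8 and 26.9, then 94.2, 895.6 and 28.1, above the floor on the diet arrays only, so its other 4 values are set to the floor and no test is given for it. Cxcl10, outside the naming rule, was likewise above the floor on the diet arrays only, as was Ciita, also outside it, within the 5-month study. Each counts as lower with canertinib and as higher with the diet where this held, directions that follow from the floor. The medians and counts given for the list include these genes and so depend in part on the floor. Gbp2, a guanylate-binding protein gene, had canertinib differences of -0.72 and -0.56, the last a bound at the floor, and did not pass.

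Immune members are also made by leukocytes, so markers of other cell types are given beside them. The 7 leukocyte markers summed to 3671.9 and 3747.8 on the chow arrays, 5686.0 and 7446.7 with the diet, and 5468.3 and 7126.5 with canertinib, which is near the diet. The 8 measured macrophage markers, with treatments listed in the same order, summed to 10319.6 and 10539.3, then 21252.4 and 25221.3, then 26020.3 and 30912.3. These sums were highest with canertinib in both studies. The neutrophil markers, 7 of 8 measured, summed to 2843.9 and 3607.3, then 4794.9 and 7029.8, then 88443.7 and 84709.3, most of the last being Lcn2, which hepatocytes also make, at 73180.8 and 68150.2. T and NK cell markers, 6 measured, had medians of 0.13 and 0.03 with the diet and 0.03 and -0.30 with canertinib. Cd3e of T cells had 250.9, 555.8 and 206.2, then 185.0, 372.3 and 180.2, at the floor on both canertinib arrays and on the 5-month chow array. The 3 B cell markers had canertinib medians of -0.05 and 0.12, the 6 endothelial markers 0.25 and -0.07, the 7 stellate cell markers -0.17 and -0.61, the 3 measured cholangiocyte markers 0.26 and 0.65, and the 8 hepatocyte markers 0.46 and 0.50. The stellate -0.61 is the value of Pdgfrb, above the floor on the 5-month diet array only. The cholangiocyte 0.65 is that of Krt19, above the floor on the 5-month canertinib array only. Sox9, whose value is the cholangiocyte 0.26, was at the floor on the 2-month diet array. The directions of these values follow from the floor, and floored values also enter the T and NK cell medians. The hepatocyte markers, all 8 higher with canertinib at both times, thus ran opposite to most constitutive proteasome genes. The part of these cell types in the member values was not tested.

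Other genes that serve the proteasome were read from lists. Of the 11 measured assembly and associated genes, 10 were lower with canertinib at 2 months and 8 at 5 months, beside 51.8% and 49.5% of the 9874 genes. Their medians were -0.27 and -0.08 with canertinib and 0.06 and 0.05 with the diet. Sem1, a small regulatory-particle subunit that the symbol rule does not take in, had 3035.2, 3228.5 and 1550.4, then 3099.1, 3219.2 and 2599.1, lowest on both canertinib arrays. The deubiquitinase gene Uchl5 had canertinib differences of -0.46 and -0.23. Neither was called by limma, with adjusted p of 0.241 and 0.562. The 9 measured ubiquitin and shuttle genes had canertinib medians of -0.08 and -0.25, with 6 and 5 lower, near those shares of the 9874 genes. Among them Nploc4 and Vcp, partners in extracting ubiquitin-marked proteins, had -0.47 and -0.28, and -0.46 and -0.27.

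The transcription factor NRF1, encoded by Nfe2l1, raises proteasome genes when proteasome activity is limiting. Nfe2l1 had 1299.2, 1332.0 and 1490.2, then 1366.6, 1400.1 and 1363.1, within a narrow band. The 6 measured genes of its activation pathway had canertinib medians of 0.08 and -0.05. Maff was above the floor on 1 array, and Mafg, another small partner of NRF factors, had 0.35 and 0.29. The 10 measured targets of the related factor NRF2 had diet medians of 0.36 and 0.15 and canertinib medians of -0.52 and -0.82. Among them Me1, a source of NADPH, had canertinib differences of -2.67 and -2.27 and Gsta2, a glutathione transferase gene, -2.28 and -2.57, the last a bound at the floor. Both passed, with limma adjusted p of 0.0127 and 0.023.

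Promoter letters were compared over 31 of the 37 constitutive genes and 5 immune genes found in the RefSeq table, on both strands of a window from 250 bases before the start to the first 50 bases after it. That window is longer than the stretches printed above, and a gene with several starts counted if any window held the motif. The antioxidant response core TGACNNNGC was in 6 of 31, or 19.4%, beside 14.0% of the 27025 genes in the table and 16.1% of the 11216 measured genes among them. The interferon motif GAAANNGAA was in 5, or 16.1%, beside 9.76% and 8.54%, and CCAAT in 12, or 38.7%, beside 41.1% and 42.0%. The motifs searched were not merged where they overlapped. Of the 5 immune genes, 0 held TGACNNNGC, 1 held GAAANNGAA (Psme1, past its start) and 1 held CCAAT (Psmb9). Among the 7 alpha subunits 5 held CCAAT. These are matches of letters and say nothing of binding.

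Other probe sets of the same gene gave mixed agreement. Beside the chosen ones, 20 further probe sets of 14 member genes were above the floor on all arrays, and the sign of the canertinib difference matched the chosen probe set in 12 of 20 at 2 months and 13 of 20 at 5 months. For diet against chow it matched in 14 and 13 of 20, and between the chow arrays in 6 of 20. Psmb9, Psmb7, Psmd14 and Psmd8 had no second probe set with 1 symbol.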

How the data were processed

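The deposited intensity values are MAS5 signals on a linear scale, per the submitters' processing notes. Its version is not stated there. From the values, the authors had scaled each array to a mean of 500.0 after leaving out the lowest 2% and the highest 2% of its values. Microarray signals have no read depth, and 1 array per group limits the precision.

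Of 45101 probe sets, 34958 had 1 gene symbol in the platform annotation, 932 several and 9211 none. Each gene was represented by its probe set with 1 symbol and the highest mean signal. Signals were raised to a floor of 221.4 and log2 transformed, and differences were taken between single arrays, with 1.5-fold as the threshold. Comparisons that use the same array are given side by side only. The limma fit used lmFit and eBayes with a variance trend and Benjamini-Hochberg adjustment over 13989 genes. It was also run on simulated data with the same spread for all genes and the same drug effect in both studies. That run cannot show how the fit behaves where the studies differ. The steps were run with Python 3.11.15, NumPy 2.4.6, pandas 2.3.3, R 4.3.3, limma 3.58.1 and matplotlib 3.10.9 for the figures.

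The members, lists and tests were chosen with earlier results of these data known. Named genes were the immune members, Psmb5, Psmb6 and Psmb7, the 2 highest and 2 lowest of each class by the mean canertinib difference, and, of each pathway list, the 2 with the largest mean difference. Genes outside this rule are said to be so or serve as markers, controls or neighbours. Alternatives were quantile normalization and median centring, a floor at the 40th or the 60th percentile, only genes that exceed it on all arrays, a mean over probe sets, probe sets ending in _s_at, _x_at or _a_at left out, no variance trend, and each array left out. Added after the data were seen were all 41 non-immune symbols in place of the 37 and the 37 without Psmd13. Protein sequences were not used here.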

Additional observations from a re-analysis of the deposited data

Results flagged for a closer look

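Some genes had log2 differences of opposite sign and at least 0.3 in size at 2 and at 5 months. Psmd3, of the regulatory particle, had 0.64 and -0.56 for the fast-food diet against chow. For canertinib against the diet, the ATPase gene Psmc3 had -0.33 and 0.43, and the assembly chaperone gene Psmd9 had 0.39 and -0.40. For canertinib against chow, the alpha subunit gene Psma5 had 0.40 and -0.30, but its other probe set above the floor on all arrays had -0.47 and -0.36, the same sign at both times. Psmd3, Psmc3 and Psmd9 had no other probe set above the floor on all arrays. Each of these rests on single arrays, and the differences between the studies were not tested.

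The probe set listed for both Psme2b and Psme2 lies outside the 45 members. With canertinib it was above chow by 0.24 at 2 months and 0.43 at 5 months, and which of the genes it reports cannot be told apart.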

How the results depend on the processing

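The labels give no replicate numbers, so the study was the only block, and it is a term of the limma fit. Medians of the 37 constitutive and 4 immune members were recomputed in 110 alternative values, of which 105 stayed within 0.1 log2 of the reported value and 5 did not, 4 of the 5 being immune medians. Without probe sets ending in _s_at, _x_at or _a_at, which removes Psmb8, the immune medians were 0.06 and 0.10 for the diet at 2 and 5 months, -0.14 in place of 0.01 for canertinib against the diet at 2 months and -0.19 for canertinib against chow at 5 months. With the mean over probe sets the constitutive median for canertinib against chow at 5 months was -0.10. Over the alternatives the constitutive median for canertinib against the diet ran from -0.25 to -0.15 at 2 months and from -0.19 to -0.04 at 5 months. The number of constitutive genes lower at both times ran from 15, without those probe sets and hence over fewer genes, to 22. The limma fit called 0 of the 45 members for canertinib against the diet in the reported setting and 1, Psmb9, when genes above the floor on all arrays were tested. Without single arrays the members called were from 0 to 0. Over all genes the fit called 100 for canertinib against the diet, 384 with genes above the floor on all arrays, 26 without a variance trend, 7 with the mean over probe sets and 0 without any 1 array. For canertinib against chow it called 107, then 402, 43, 25 and 0, and for diet against chow 4, then 134, 0, 0 and 0. Depth does not apply to arrays, and members near the floor, among them Psmd10, Psme3 and Psmd7, are the least precisely measured.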
